A study of Mus musculus with 15 samples.

Results

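The genes described here are 10 members of the Notch signalling pathway, out of 34910 genes with counts: the receptors Notch1, Notch2 and Notch3, the ligands Dll1, Dll3 and Jag1, the DNA-binding factor Rbpj, and the target genes Hes1, Hes5 and Hey1. They were chosen by name, and the counts of each gene's transcripts were added up in each library. RNA was sequenced from wild type mouse neural progenitor cells, which divide and can form neurons and glial cells, and the 15 libraries form 5 groups of 3. In every group the cells were grown with FGF2, EGF and heparin and received plasmids with a short hairpin RNA (shRNA) and EGFP, and cells that expressed GFP were collected by sorting on day 3. The study asked what lowering LINE-1, a retrotransposon family, does in such cells.

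The 5 groups were shControl (a control hairpin), shLINE_Orf1, shLINE_Orf2 and shLINE_MdV_I (3 hairpins against LINE-1), and shLINE_Orf1+LINE-1 (the shLINE_Orf1 hairpin with a full-length LINE-1 added). The design text speaks of hairpins against young and old LINE-1 and pairs the added LINE-1 with the young one, and it does not say which class shLINE_Orf2 and shLINE_MdV_I target. How many separate cultures the replicates came from was not given in the sources used here, nor were strain and age. The p-values therefore measure the spread between libraries, which may be technical. LINE-1 RNA and EGFP were not analysed here, so the extent of each knockdown is not known from these counts.

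In Notch signalling, a ligand on the surface of 1 cell binds a receptor on its neighbour, and the receptor is then cut so that its inner part enters the nucleus. There it joins Rbpj on DNA and turns on Hes and Hey genes, which encode repressors of neuron-making genes. In neural progenitors this holds back the forming of neurons, while cells that begin to form neurons raise the ligands.

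Total gene counts were between 39204176 and 51070448 per library. Levels of a gene across libraries are given in CPM (counts divided by a TMM-scaled library size), and levels of different genes in TPM, counts divided by transcript length and scaled to the same total in each library. All 10 neural progenitor markers examined (among them Sox2 and Nes) had counts, and their summed level was 7230 to 11200 CPM. The 8 oligodendrocyte lineage markers summed to 2080 to 3520 CPM, the 6 astrocyte markers to 434 to 610, and the 8 neuron markers to 345 to 529. Microglia markers summed to at most 2.51 CPM, with Aif1 at 0 in all 15 libraries, and fibroblast markers to at most 1.09 CPM. Of 7 endothelial and pericyte markers, summing to 22.6 to 49.5 CPM, 5 were under 1 CPM in every group.

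Long and short members differed in 2 libraries that stood apart from the rest, which bears on every comparison below. On the first principal component of all genes (23.9% of the variance) shLINE_Orf1 replicate 1 lay at 75.9 and shControl replicate 2 at 24.3, with the other 13 libraries between -18.8 and 4.7. In shLINE_Orf1 replicate 1, long transcripts were low and short ones high. Across the 15141 genes tested, which are not independent replicates, the log2 deviation from the median library had a Pearson r of -0.50 with log2 transcript length. Among genes whose median log2 CPM over the libraries reached 3, the median deviation was -0.85 for 290 genes over 8000 bases and 0.43 for 2875 genes under 2000 bases.

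The long members followed that direction. Notch1, with a mean transcript length of 9418 bases, deviated by -1.50 in that library, Notch2 (10439 bases) by -1.29, Notch3 (8016 bases) by -0.92 and Jag1 (5601 bases) by -1.34. The short target gene Hes5 (1265 bases) deviated by 0.51, and Hes1 (1453 bases) and Hey1 (2415 bases) were at the median. Dll1 (3473 bases) at -0.93 and Dll3 (2597 bases) at -0.74 were lower than the lower quartile of genes of their length, for which the medians were -0.19 for 3000 to 4000 bases and 0.02 for 2000 to 3000 bases. In shControl replicate 2 the same correlation was -0.36, and in shControl replicate 1 it was 0.28, where Hes5 deviated by -0.72. For the main differences below, values are therefore also given without shLINE_Orf1 replicate 1 and shControl replicate 2 or with the length trend of each library removed, the latter an alternative chosen after the data had been seen.

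Per transcript length, Hes1 and Hes5 had the highest levels of the 10 members. Mean TPM over the 15 libraries was 55.1 ± 7.9 for Hes1 and 51.6 ± 11.9 for Hes5 (SD, n = 15), which did not differ beyond their spread. Notch1 followed at 35.2 ± 8.9, then Dll3 at 26.5 ± 8.1, Rbpj at 26.4 ± 5.1, Hey1 at 20.6 ± 3.2 and Dll1 at 19.9 ± 5.3. The gaps between Notch1 and Dll3, Dll3 and Rbpj, and Hey1 and Dll1 were smaller than the larger SD of each pair. Jag1 was lower, at 12.97 ± 3.38 TPM. Notch3 and Notch2 were the lowest members, at 6.18 ± 1.66 and 2.45 ± 0.78 TPM.

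All 10 members passed the filter on low counts. Of 10 pairwise comparisons of the 5 groups, 1 held members past the threshold, which is a Benjamini-Hochberg adjusted p under 0.05 in edgeR's quasi-likelihood test over all 15141 genes. That comparison was shLINE_MdV_I against shLINE_Orf1, where the ligands Dll1 and Dll3 were higher, and 0.687% of all genes were called. In the test for any difference among the 5 groups, 0 members passed, against 0.944% of all genes. The smallest adjusted p-values of members in that test were 0.0622 for Dll1, 0.0679 for Dll3 and 0.121 for Hey1.

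**Figure D1:**
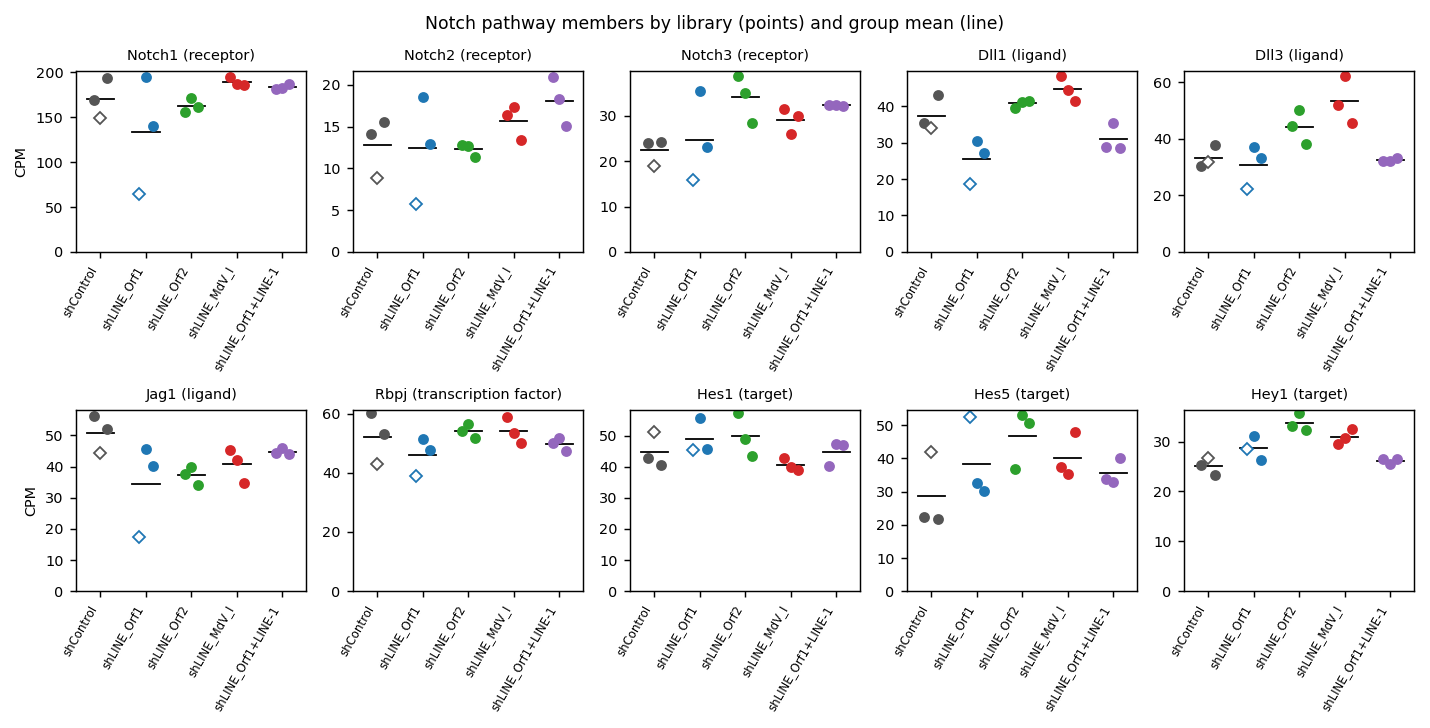
CPM of each member in every library (points) with the mean of each group of 3 (black line), axes starting at 0, and open diamonds for shLINE_Orf1 replicate 1 and shControl replicate 2. Dll1 and Dll3 sit highest in shLINE_MdV_I, and the open diamond of shLINE_Orf1 is the lowest point for all 3 receptors, all 3 ligands and Rbpj.

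Among the receptors, Notch1, the most abundant of the 3, lay between 149 and 194.7 CPM in the 12 libraries outside shLINE_Orf1. It was at 169, 149 and 194 CPM in shControl replicates 1 to 3, and at 64.1, 195.5 and 139.9 CPM in shLINE_Orf1. It was at 156, 171 and 161 CPM in shLINE_Orf2, at 194.7, 187 and 185.5 in shLINE_MdV_I, and at 182, 183 and 188 in shLINE_Orf1+LINE-1. The lowest and the highest of all 15 values were both in shLINE_Orf1. Against shControl the log2 differences were -0.36 ± 0.25, -0.07 ± 0.25, 0.15 ± 0.25 and 0.11 ± 0.25 (SE) in the order shLINE_Orf1, shLINE_Orf2, shLINE_MdV_I and shLINE_Orf1+LINE-1. Their 95% intervals, from a normal approximation, reached from -0.85 to 0.64, and none passed the test. The difference in shLINE_Orf1 was -0.12 ± 0.12 without the 2 libraries and -0.16 ± 0.13 with the length trend removed.

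Notch2, a receptor present at a low level, was at 14.1, 8.84 and 15.6 CPM in shControl and at 5.73, 18.5 and 12.96 CPM in shLINE_Orf1. In shLINE_Orf2 it was at 12.8, 12.7 and 11.4 CPM, in shLINE_MdV_I at 16.4, 17.3 and 13.4, and in shLINE_Orf1+LINE-1 at 21.0, 18.3 and 15.1. Every library of the last group lay above every library of shLINE_Orf2, with a log2 difference of 0.56 ± 0.30 that did not pass (adjusted p = 0.640). Without the 2 libraries, neither of them in these groups, the difference was 0.57 ± 0.14 and passed (adjusted p = 0.0355), with a smaller SE from the spread that all groups share. It was 0.61 ± 0.18 with the length trend removed and did not pass (adjusted p = 0.115), and 3 of 26 alternatives called it.

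Notch3 was the receptor with the most separated groups. It was at 24.0, 19.0 and 24.2 CPM in shControl and at 15.8, 35.4 and 23.0 CPM in shLINE_Orf1. Its values were 38.8, 35.1 and 28.5 CPM in shLINE_Orf2, 31.4, 25.9 and 29.96 in shLINE_MdV_I, and 32.4, 32.4 and 32.2 in shLINE_Orf1+LINE-1. Libraries of the last 3 groups were all above the highest shControl library, and shLINE_Orf1 ranged from 15.8 to 35.4 CPM. Of all genes, 12%, 14.9% and 16.8% did not overlap with shControl in those 3 groups, and the joint share was not counted. The log2 differences from shControl were 0.61 ± 0.21 in shLINE_Orf2 (adjusted p = 0.455), 0.38 ± 0.21 in shLINE_MdV_I (adjusted p = 0.699) and 0.53 ± 0.21 in shLINE_Orf1+LINE-1 (adjusted p = 0.481). With the length trend removed, shLINE_Orf2 gave 0.58 ± 0.12 and passed (adjusted p = 0.0354), and without the 2 libraries it gave 0.50 ± 0.15 and did not (adjusted p = 0.113).

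The ligand Dll1, which activates receptors on neighbouring cells, was highest in shLINE_MdV_I and lowest in shLINE_Orf1. It was at 48.3, 44.4 and 41.6 CPM in shLINE_MdV_I, at 39.5, 41.3 and 41.6 in shLINE_Orf2, and at 35.5, 33.9 and 43.0 in shControl. In shLINE_Orf1+LINE-1 it was at 28.8, 35.5 and 28.7 CPM, and in shLINE_Orf1 at 18.6, 30.5 and 27.1. Every library of shLINE_Orf1 lay below every library of shControl, shLINE_Orf2 and shLINE_MdV_I. Of all genes, 9.28%, 14.2% and 19.2% did not overlap in those pairs, and the joint share was not counted. The neighbours in this order, shLINE_MdV_I and shLINE_Orf2 (0.13 ± 0.15), shLINE_Orf2 and shControl (0.12 ± 0.15), shControl and shLINE_Orf1+LINE-1, and the latter and shLINE_Orf1 (0.29 ± 0.16), did not differ by the test.

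Between the ends of that order, Dll1 rose from 25.4 ± 6.1 CPM in shLINE_Orf1 to 44.8 ± 3.4 CPM in shLINE_MdV_I (SD, n = 3 each), a 1.76-fold difference. The adjusted p-values given for this pair, here and for Dll3 below, were not corrected for the choice among 10 pairs. The log2 difference was 0.82 ± 0.16 with a 95% interval of 0.51 to 1.12 (edgeR adjusted p = 0.0277). It stayed at 0.64 ± 0.11 without the 2 libraries (adjusted p = 0.00807) and at 0.75 ± 0.12 with the length trend removed (adjusted p = 0.00846). Dll1 was called in 20 of 26 alternatives. The call was lost without shLINE_Orf1 replicate 3 (adjusted p = 0.0547) and without shLINE_MdV_I replicate 1 (0.163), replicate 2 (0.103) or replicate 3 (0.0583). It was also lost with library size as the only scaling (0.0622) and with only these 2 groups in the fit (0.368).

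Dll3, a divergent ligand that acts within the cell that makes it, had the same 2 groups on top. It was at 51.8, 62.2 and 45.8 CPM in shLINE_MdV_I and at 44.6, 50.2 and 38.2 CPM in shLINE_Orf2. In shControl it was at 30.3, 31.7 and 37.9 CPM, in shLINE_Orf1+LINE-1 at 32.1, 32.1 and 33.4, and in shLINE_Orf1 at 22.1, 37.1 and 33.1. All 6 libraries of shLINE_MdV_I and shLINE_Orf2 lay above all 9 libraries of the other groups. The closest were shLINE_Orf2 replicate 3 at 38.17 CPM and shControl replicate 3 at 37.94. This split was not among the planned comparisons, and its share over all genes was not counted. Group means of shControl, shLINE_Orf1 and shLINE_Orf1+LINE-1 were 33.3 ± 4.1, 30.8 ± 7.7 and 32.5 ± 0.7 CPM (SD, n = 3), which differed by less than the spread of the first 2.

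Between shLINE_Orf1 and shLINE_MdV_I, Dll3 rose from 30.8 ± 7.7 to 53.3 ± 8.3 CPM (SD, n = 3 each), a 1.73-fold difference. Its log2 difference was 0.79 ± 0.17 with a 95% interval of 0.46 to 1.13 (edgeR adjusted p = 0.0480). Without the 2 libraries it was 0.61 ± 0.13 (adjusted p = 0.0359), and with the length trend removed 0.79 ± 0.16 (adjusted p = 0.0260). The call lies close to the threshold: it held in 10 of 26 alternatives, over which the adjusted p ranged from 0.000557 to 0.450. Leaving out any single library except shControl replicate 3 or shLINE_Orf1 replicate 2 ended it, with adjusted p-values of 0.0862 without shLINE_Orf1 replicate 1 and 0.229 without shLINE_MdV_I replicate 2.

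Against shLINE_Orf1+LINE-1, where shLINE_MdV_I was the higher group too, the log2 differences did not pass: -0.53 ± 0.16 for Dll1 (adjusted p = 0.180) and -0.71 ± 0.17 for Dll3 (adjusted p = 0.0755), with 0.68% of genes called. Without the 2 libraries, neither of which is in these groups, they were -0.53 ± 0.10 (adjusted p = 0.00572) and -0.71 ± 0.12 (adjusted p = 0.00258), and both passed, with 3.73% of genes called. With the length trend removed both passed as well, with adjusted p-values of 0.0383 and 0.0346. Against shControl, Dll3 differed by 0.68 ± 0.17 in shLINE_MdV_I (adjusted p = 0.104) and by 0.41 ± 0.17 in shLINE_Orf2 (adjusted p = 0.601). Dll1 differed from shControl by -0.56 ± 0.16 in shLINE_Orf1 (adjusted p = 0.211) and passed there with DESeq2 and with limma-voom. It did not pass without the 2 libraries (-0.45 ± 0.12, adjusted p = 0.0919) or with the length trend removed (-0.51 ± 0.12, adjusted p = 0.0950).

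**Figure D2:**
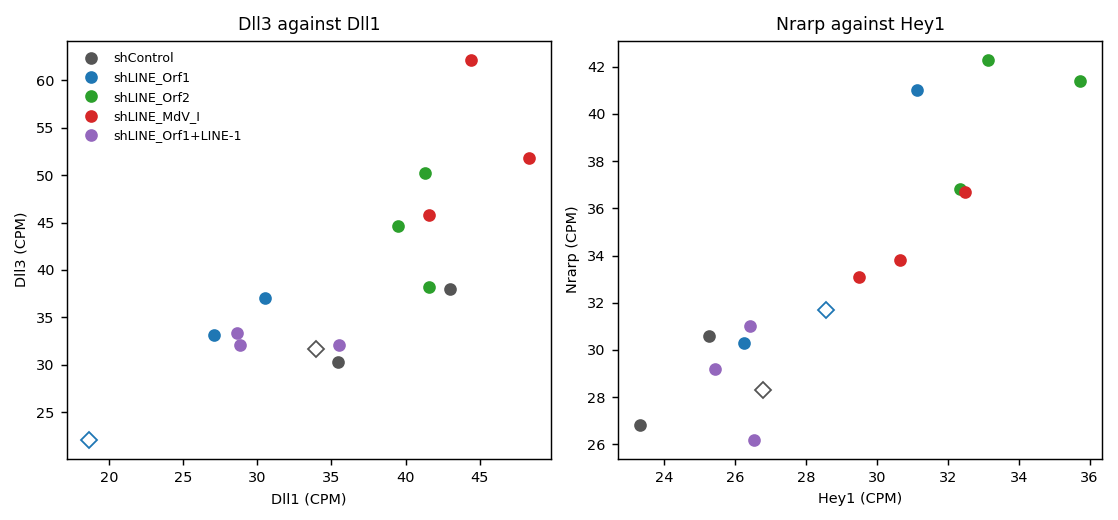
CPM of Dll3 against Dll1 (left) and of Nrarp against Hey1 (right), 1 point per library, coloured by group, with open diamonds for shLINE_Orf1 replicate 1 and shControl replicate 2 and axes that do not start at 0. In the left panel shLINE_Orf1 replicate 1 is lowest for both ligands (18.6 and 22.1 CPM), and shLINE_MdV_I libraries reach 48.3 CPM of Dll1 and 62.2 CPM of Dll3.

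Levels of cell type markers were also compared between these groups. The 8 neuron markers summed to 447 to 475 CPM in shLINE_MdV_I and to 385 to 431 in shLINE_Orf1, with no overlap. Of single genes, 19.2% did not overlap between these 2 groups. The sums were 408 to 452 in shLINE_Orf2, 406 to 440 in shLINE_Orf1+LINE-1 and 345 to 529 in shControl. Most of each sum came from 1 marker, Map2. It was at 407 CPM in shLINE_MdV_I and 374 in shLINE_Orf1 (0.12 ± 0.13, edgeR adjusted p = 0.6165). None of the 8 was at 0 in every library of a group, and Stmn2 was under 1 CPM in all 15 libraries. Of 7 neuron markers that passed the filter, all 7 had a positive log2 difference between shLINE_MdV_I and shLINE_Orf1 (median 0.56, against -0.0049 over all genes) and 0 were called. The 10 progenitor markers, which include Hes5, summed to 8390 to 11200 CPM in shLINE_Orf1 and to 7230 to 7700 in shLINE_MdV_I, also with no overlap. The most abundant of them was Fabp7, a fatty acid binding protein of progenitors, at 5093 CPM in shLINE_Orf1 and 3172 in shLINE_MdV_I (-0.68 ± 0.23, adjusted p = 0.216). In shLINE_Orf1 replicates 1 to 3 it was at 7630, 3400 and 4250 CPM, with the highest value in the library that stood apart. Without the 2 libraries that stand apart the Fabp7 difference was -0.26 ± 0.11 (edgeR adjusted p = 0.3535). By log2 difference, 7 of the 10 were positive in shLINE_MdV_I against shLINE_Orf1 (median 0.05), the other way from the sum, and 0 were called.

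Summed markers of glial lineages overlapped between shLINE_MdV_I and shLINE_Orf1. The oligodendrocyte lineage sums were 2920 to 3190 CPM in shLINE_MdV_I and 2080 to 3520 in shLINE_Orf1. For astrocytes the sums were 482 to 546 and 528 to 610 CPM. Of 7 oligodendrocyte lineage markers tested, 6 were positive in shLINE_MdV_I (median 0.15) and 2 were called higher. These were Pdgfra, a growth factor receptor of oligodendrocyte precursors, at 21.3 against 9.43 CPM (1.17 ± 0.24, edgeR adjusted p = 0.0376), and Sox10, a transcription factor of that lineage, at 6.96 against 3.44 CPM (1.02 ± 0.22, adjusted p = 0.0477). Pdgfra passed also without the 2 libraries (adjusted p = 0.0109), and Sox10 did not (0.0732). None of the 6 astrocyte markers was positive (median -0.51) and 0 were called, and without the 2 libraries S100b was called lower (-0.77 ± 0.16, adjusted p = 0.0198). The part of these markers, and of the neuron and progenitor markers, in the ligand levels was not tested. In bulk RNA such as this, fewer cells of a type and less RNA per cell cannot be told apart.

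The sequences ahead of both ligand genes were examined because Dll1 and Dll3 were called together. RefSeq windows from 250 bases before to 50 after a start (GRCm38.p6) matched 8 of the 10 members by symbol. The motif CAGCTG, an E-box, a class of motif that basic helix-loop-helix factors bind, was searched on both strands and was chosen after the ligand values were known. It was present in 16.3% of 32851 mouse windows of 300 bases, in 1 of 2 windows of Dll1, and in those of Dll3 and Jag1. For Dll1 the match began at position -132, and the 250 bases before that RefSeq start are shown (minus strand, chr17:15376933-15377182). That start lies upstream of the gene in the annotation used for the counts, and the other window, nearer to the start of the leading Dll1 transcript, held no match. For Dll3 the match began at position -7, and 30 bases around it are shown (minus strand, chr7:28301775-28301804), which lie in an annotated 5′ UTR of Dll3. Capitals mark CAGCTG.
Dll1: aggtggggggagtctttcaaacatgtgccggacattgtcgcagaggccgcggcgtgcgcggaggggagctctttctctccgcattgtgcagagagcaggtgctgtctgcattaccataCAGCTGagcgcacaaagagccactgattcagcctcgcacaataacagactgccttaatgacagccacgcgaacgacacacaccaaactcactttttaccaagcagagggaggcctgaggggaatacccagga
Dll3: tccggcatccagCAGCTGcgactcctgaga

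Jag1, a ligand of the Serrate class that binds the same receptors, had its highest group mean in shControl. It was at 56.3, 44.3 and 52.1 CPM in shControl, at 17.3, 45.7 and 40.2 in shLINE_Orf1 and at 37.6, 39.9 and 34.1 in shLINE_Orf2. In shLINE_MdV_I it was at 45.3, 42.0 and 34.8 CPM, and in shLINE_Orf1+LINE-1 at 44.2, 45.8 and 43.9. All 3 shLINE_Orf2 libraries lay below all 3 shControl libraries. The log2 differences from shControl were -0.57 ± 0.24, -0.45 ± 0.24, -0.32 ± 0.24 and -0.19 ± 0.24 (SE), in the order shLINE_Orf1, shLINE_Orf2, shLINE_MdV_I and shLINE_Orf1+LINE-1. None passed in the fit of all libraries, with adjusted p-values from 0.439 to 0.894.

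Without the 2 libraries, Jag1 was lower by the test in shLINE_Orf2 (-0.54 ± 0.10, adjusted p = 0.0101) and in shLINE_MdV_I (-0.41 ± 0.10, adjusted p = 0.0420). In shLINE_Orf1 it was at -0.34 ± 0.11 (adjusted p = 0.154) and in shLINE_Orf1+LINE-1 at -0.27 ± 0.10 (adjusted p = 0.172). With the length trend removed and all libraries kept, the difference in shLINE_Orf2 was -0.46 ± 0.15 and did not pass (adjusted p = 0.259). These comparisons share the shControl libraries, so they are not independent of each other. Without the 2 libraries, shControl still holds replicate 1, where deviations rose with transcript length (r = 0.28) and Jag1 deviated by 0.36.

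Rbpj, the factor through which the cut receptors reach DNA, had the largest adjusted p among 5 groups (0.649). It was at 60.2, 43.0 and 53.1 CPM in shControl, at 38.9, 51.5 and 47.7 in shLINE_Orf1 and at 54.1, 56.4 and 51.9 in shLINE_Orf2. In shLINE_MdV_I it was at 58.8, 53.5 and 50.1 CPM and in shLINE_Orf1+LINE-1 at 50.1, 51.7 and 47.2. Of the 12 other libraries, 11 lay within the range of shControl, and shLINE_Orf1 replicate 1 lay below it. Log2 differences from shControl were -0.18 ± 0.13, 0.055 ± 0.13, 0.055 ± 0.13 and -0.07 ± 0.13, in the same order of groups, and their 95% intervals reached from -0.43 to 0.30.

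Counts of Rbpj were split between transcripts, unlike those of the other 9 members, whose leading transcript held 96.2% to 100% of counts. Over 15 libraries, Rbpj-203 held 51.1% ± 11.1 and Rbpj-202 24.9% ± 14.1 of Rbpj counts (SD, n = 15), with single libraries from 25.1% to 75.1% and from 0% to 52.4%. In shLINE_Orf2 the shares were 37.6% ± 12.6 and 37.1% ± 17.1 (SD, n = 3), and in shControl 60.5% ± 13.02 and 17.6% ± 15.6. The 2 forms have lengths of 5440 and 5252 bases and share most of their sequence, so how RSEM divided reads between them is uncertain, and no test was made. Counts assigned to the pseudogenes Rbpj-ps3 and Rbpj-ps1 averaged 3.52 and 0 per library.

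Of the target genes, Hes1, a repressor that Notch induces, was at 43.0, 51.2 and 40.5 CPM in shControl, at 45.5, 55.6 and 45.8 in shLINE_Orf1 and at 57.4, 49.0 and 43.5 in shLINE_Orf2. In shLINE_MdV_I it was at 42.8, 39.9 and 38.96 CPM and in shLINE_Orf1+LINE-1 at 40.4, 47.3 and 46.9. The highest library was 1.47 times the lowest, the smallest such ratio of the 10 members. Every library of shLINE_MdV_I lay below every library of shLINE_Orf1 and shLINE_Orf2, with log2 differences of -0.27 ± 0.13 (adjusted p = 0.303) and -0.30 ± 0.13 (adjusted p = 0.815). Against shControl no difference passed, and the 95% intervals reached from -0.39 to 0.40.

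Hes5, the second Hes repressor under Notch control in progenitors, varied more, and shControl was its lowest group. It was at 22.4, 41.9 and 21.6 CPM in shControl, at 52.4, 32.5 and 30.05 in shLINE_Orf1 and at 36.8, 53.1 and 50.6 in shLINE_Orf2. In shLINE_MdV_I it was at 37.3, 35.3 and 48.0 CPM and in shLINE_Orf1+LINE-1 at 33.9, 33.0 and 40.1. Of the 3 shControl libraries, replicate 2 lay among the hairpin libraries and the other 2 below all 12 of them. Replicates 1 and 2 of shControl were also those whose genes followed transcript length in opposite directions, and the high value in shLINE_Orf1 was replicate 1.

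With all libraries, the log2 differences of Hes5 from shControl were 0.42 ± 0.25, 0.71 ± 0.25, 0.49 ± 0.25 and 0.32 ± 0.25 (SE), in the order shLINE_Orf1, shLINE_Orf2, shLINE_MdV_I and shLINE_Orf1+LINE-1, and none passed (adjusted p from 0.473 to 0.795). Without the 2 libraries, shControl had 2 libraries with a mean of 22.0 CPM, and the differences were 0.51 ± 0.17, 1.09 ± 0.16, 0.87 ± 0.16 and 0.70 ± 0.16. The last 3 passed, with adjusted p-values of 0.00189, 0.00718 and 0.0305, and shLINE_Orf1 did not (0.163). With the length trend removed and all libraries kept, shLINE_Orf2 passed at 0.77 ± 0.17 (adjusted p = 0.0492), and shLINE_MdV_I (0.555 ± 0.17, adjusted p = 0.142) and shLINE_Orf1+LINE-1 (0.39 ± 0.17, adjusted p = 0.345) did not. The calls of Hes5 thus changed with the 2 libraries and with the treatment of length. The summed CPM of the 6 astrocyte markers was also lower in shControl, at 434 to 485, than in shLINE_Orf2 (506 to 586), shLINE_Orf1 (528 to 610) and shLINE_Orf1+LINE-1 (518 to 554), and overlapped with shLINE_MdV_I (482 to 546). Of single genes, 12%, 9.28%, 16.8% and 14.9% did not overlap with shControl in these groups, in the same order. Taken singly, 4, 5, 3 and 2 of the 6 had a positive log2 difference from shControl in those groups in the same order (medians 0.24, 0.34, 0.08 and -0.23), and 0 were called. Of the astrocyte sum, Aldoc alone held a mean of 208.8 CPM in shControl and 276.7 in shLINE_Orf2, where sums averaged 455 and 538. Aldoc was called higher in shLINE_Orf2 and in shLINE_MdV_I without the 2 libraries (adjusted p = 0.00444 and 0.0254). The part of the astrocyte markers in the Hes5 levels was not tested.

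The sequence before Hes5 is shown because, of the 8 members with a window, it alone held the RBPJ motif, GTGGGAA, letters that Rbpj is known to bind. No window matched Hes1 or Hey1, the other target genes, so neither was searched. The motif was searched on both strands in the 300-base RefSeq windows and was present in 6.38% of all 32851. Of the windows of the 8 matched members it was in that of Hes5, beginning at positions -226 and -83. The 250 bases before the Hes5 start (plus strand, chr4:154960673-154960922, GRCm38.p6) are given with the 2 matches in capitals, the first of them on the other strand. The N-box CACNAG, a motif of Hes repressors, was present in 42.48% of windows, among them those of Notch1, Notch2, Notch3 and 1 of 2 of Dll1. A match is a description of the letters and no measure of binding.
Hes5: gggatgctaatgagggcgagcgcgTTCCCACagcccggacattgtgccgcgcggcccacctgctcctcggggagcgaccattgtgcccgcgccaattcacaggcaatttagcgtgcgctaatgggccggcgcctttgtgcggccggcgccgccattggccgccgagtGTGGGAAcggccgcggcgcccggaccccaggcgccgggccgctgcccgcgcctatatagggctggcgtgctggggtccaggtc

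Hey1, a target gene of the related Hey family, had the tightest replicates of the 3 targets. It was at 25.3, 26.8 and 23.3 CPM in shControl, at 28.6, 31.1 and 26.3 in shLINE_Orf1 and at 33.1, 35.7 and 32.3 in shLINE_Orf2. In shLINE_MdV_I it was at 29.5, 30.7 and 32.5 CPM and in shLINE_Orf1+LINE-1 at 26.5, 25.5 and 26.4. All 3 libraries of shLINE_Orf2 and all 3 of shLINE_MdV_I lay above all libraries of shControl and of shLINE_Orf1+LINE-1. That joint split was not planned, and its share over all genes was not counted. Between single pairs of these groups, 12% to 27.2% of genes did not overlap. The order of group means was shLINE_Orf2 (33.7 ± 1.8), shLINE_MdV_I (30.9 ± 1.5), shLINE_Orf1 (28.65 ± 2.43), shLINE_Orf1+LINE-1 (26.1 ± 0.6) and shControl (25.1 ± 1.7 CPM, SD, n = 3).

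The log2 difference of Hey1 between shLINE_Orf2 and shControl was 0.42 ± 0.10 with a 95% interval of 0.24 to 0.61, and it did not pass (adjusted p = 0.107). It passed without the 2 libraries (0.47 ± 0.09, adjusted p = 0.0131), with the length trend removed (0.42 ± 0.09, adjusted p = 0.0299), and without shLINE_Orf1 replicate 1 alone (adjusted p = 0.0399). Over all 26 alternatives the difference kept its sign, between 0.38 and 0.52, and 5 called it. In shLINE_Orf1+LINE-1 against shLINE_Orf2 the difference was -0.37 ± 0.10 (adjusted p = 0.148). It passed at -0.36 ± 0.08 without the 2 libraries (adjusted p = 0.0212) and at -0.38 ± 0.09 with the length trend removed (adjusted p = 0.0472). In shLINE_MdV_I, Hey1 differed from shControl by 0.30 ± 0.10 (adjusted p = 0.280), and in shLINE_Orf1+LINE-1 by 0.06 ± 0.10 (adjusted p = 0.930).

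**Figure D3:**
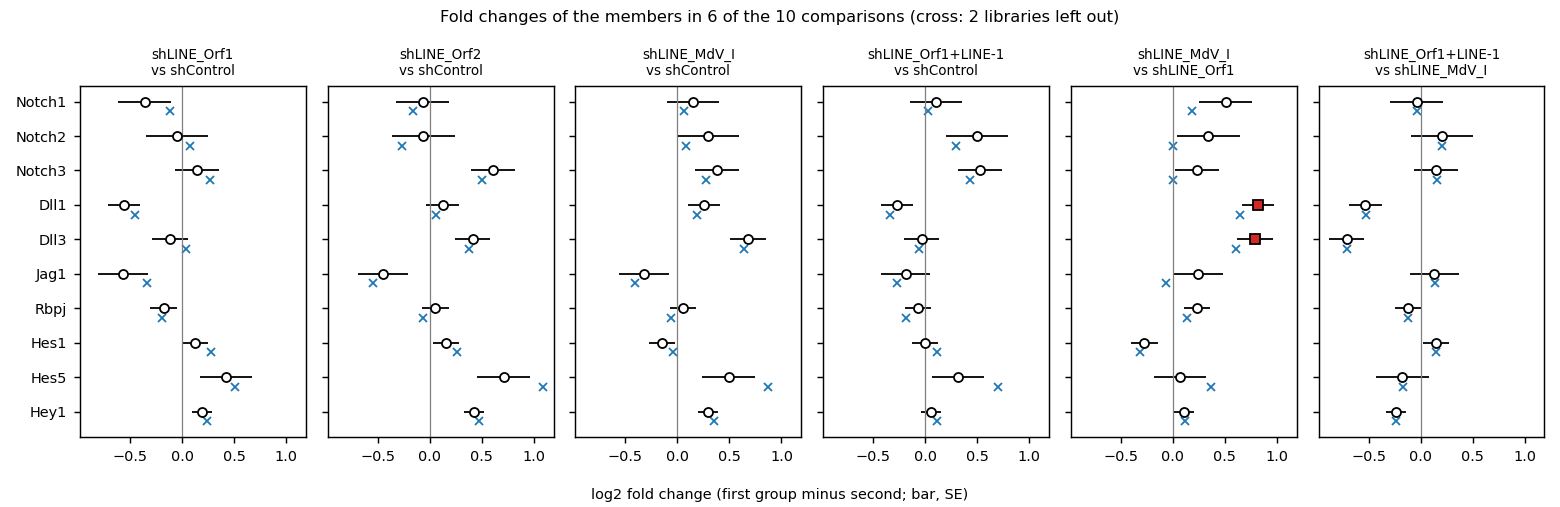
Log2 fold change of each member (circles, or red squares where called) with its SE in 6 of the 10 comparisons, first group minus second, and blue crosses for the value without shLINE_Orf1 replicate 1 and shControl replicate 2. The red squares are Dll1 (0.82) and Dll3 (0.79) in shLINE_MdV_I against shLINE_Orf1, and the crosses of Hes5 against shControl lie to the right of the circles.

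The counts of members called can be set beside those of all genes. In the fit of all 15 libraries, 0 of 10 members were called in shLINE_Orf1 against shControl (0.178% of genes), in shLINE_Orf2 against shControl (0.192%), in shLINE_MdV_I against shControl (0.594%) and in shLINE_Orf1+LINE-1 against shControl (0.139%). The counts at an unadjusted p under 0.05 in edgeR were 2, 4, 2 and 1 members, those called by DESeq2 1, 1, 1 and 0, and those called by limma-voom 1, 3, 3 and 2. Of all genes, 10.5%, 7.01%, 8.63% and 8.76% had an unadjusted p under 0.05 in edgeR, 1.41%, 1.22%, 2.01% and 1.41% were called by DESeq2, and 4.21%, 2.53%, 2.61% and 3.58% by limma-voom. Members were also at 0 in shLINE_MdV_I against shLINE_Orf2 (0.112% of genes) and in shLINE_Orf1+LINE-1 against shLINE_Orf2 (0.238%), with 1 and 3 members at an unadjusted p under 0.05. DESeq2 called 0 and 1 member there, and limma-voom 0 and 5. For all genes in these 2 comparisons the shares were 5.46% and 9.0% at an unadjusted p under 0.05, 0.786% and 1.77% in DESeq2, and 3.44% and 10.2% in limma-voom.

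Between the shLINE_Orf1 hairpin alone and with the full-length LINE-1 added, edgeR called 0.0% of genes and 0 members (shLINE_Orf1+LINE-1 against shLINE_Orf1). At an unadjusted p under 0.05 there were 1680 genes and 0 members, and DESeq2 and limma-voom called 20 and 399 genes and 0 members. The log2 differences of members were between -0.13 (Hes1 and Hey1) and 0.55 (Notch2), with a median of 0.20 beside -0.01 for all genes. Those above 0.35 were Notch1, Notch2, Notch3 and Jag1, at 0.47, 0.55, 0.39 and 0.38, which are the 4 longest members. With the length trend removed they were 0.27, 0.34, 0.17 and 0.23, and without the 2 libraries they were 0.145, 0.215, 0.158 and 0.068.

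In shLINE_Orf2 against shLINE_Orf1, 0.0% of genes and 0 members were called as well, with 1729 genes and 4 members at an unadjusted p under 0.05. DESeq2 called 125 genes and 1 member, Dll1, and limma-voom 832 genes and 5 members. Dll1 differed most, by 0.68 ± 0.16 (adjusted p = 0.145), followed by Dll3 at 0.53 ± 0.17 (adjusted p = 0.378). The order changed without the 2 libraries, where Hes5 differed most, by 0.59 ± 0.15 (adjusted p = 0.166), with Dll1 at 0.51 ± 0.11 (adjusted p = 0.101) and Dll3 at 0.34 ± 0.13 (adjusted p = 0.430).

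Leaving out the 2 libraries raised the counts of all genes and of members alike, with 15398 genes tested. In the test among 5 groups, 5 members were called (Dll1, Dll3, Jag1, Hes5 and Hey1), against 6.03% of genes. In shLINE_Orf1 against shControl 0 were called (0.903% of genes), 3 in shLINE_Orf2 against shControl (Jag1, Hes5 and Hey1; 1.77%), 3 in shLINE_MdV_I against shControl (Dll3, Jag1 and Hes5; 2.53%) and 1 in shLINE_Orf1+LINE-1 against shControl (Hes5; 2.29%). Counts were 0 in shLINE_Orf1+LINE-1 against shLINE_Orf1 (0.0%), in shLINE_Orf2 against shLINE_Orf1 (0.156%) and in shLINE_MdV_I against shLINE_Orf2 (1.13%). They were 2 in shLINE_MdV_I against shLINE_Orf1 (Dll1 and Dll3; 1.03%) and 4 in shLINE_Orf1+LINE-1 against shLINE_Orf2 (Dll1, Dll3 and Hey1 lower, Notch2 higher; 3.69%).

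Groups that did not overlap were common among all genes. In shLINE_Orf2 against shControl, 4 members did not overlap (Notch3, Dll3 and Hey1 higher, Jag1 lower), as did 12% of all genes. In shLINE_MdV_I against shControl it was 3 members (Notch3, Dll3 and Hey1, all higher) and 14.9% of genes, and in shLINE_MdV_I against shLINE_Orf1 3 members (Dll1 and Dll3 higher, Hes1 lower) and 19.2% of genes. In shLINE_Orf1 against shControl it was Dll1, lower, with 9.28% of genes, and in shLINE_Orf1+LINE-1 against shControl Notch3, higher, with 16.8%.

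Among the hairpins, 4 members did not overlap in shLINE_Orf2 against shLINE_Orf1 (Dll1, Dll3, Hey1 and Rbpj, all higher), as did 14.2% of genes, and 4 in shLINE_MdV_I against shLINE_Orf2 (Notch1, Notch2 and Dll1 higher, Hes1 lower), as did 17.5%. With LINE-1 added, the shLINE_Orf1+LINE-1 libraries overlapped those of shLINE_Orf1 for all 10 members, beside 17.4% of genes that did not overlap. Against shLINE_Orf2, 7 members did not overlap (Notch1, Notch2 and Jag1 higher, Dll1, Dll3, Hey1 and Rbpj lower), as did 26.5% of genes. Against shLINE_MdV_I it was 4 (Notch3 higher, Dll1, Dll3 and Hey1 lower) and 27.2%.

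The wider pathway was covered by 7 lists of 86 genes, of which 75 passed the filter: other receptors and ligands, enzymes that modify and cut the receptors, genes of endocytosis and turnover, nuclear cofactors, other Hes and Hey genes, other reported targets, and proneural genes. By the test among 5 groups 1 of the 75 was called, Neurod1, beside 0.944% of all genes, and 1 in the 10 pairwise comparisons, again Neurod1. Leaving out the 2 libraries, 6 of the 75 were called among 5 groups (Neurod1, Nrarp, Mfng, Lfng, Tle3 and Ccnd1), beside 6.03% of genes, and between 0 and 6 in each pairwise comparison, with the most in shLINE_Orf1+LINE-1 against shLINE_Orf2. The median log2 difference from shControl in shLINE_Orf1 was -0.24 over 6 other receptors and ligands, -0.28 over 20 nuclear cofactors and -0.07 over 15 receptor-modifying enzymes, beside -0.01 over all genes. It was -0.09 over 15 genes of endocytosis and turnover, 0.02 over 5 other Hes and Hey genes, 0.05 over 10 other reported targets and -0.50 over 4 proneural genes. These medians include shLINE_Orf1 replicate 1, where long transcripts were low. They were not recomputed without it or with the length trend removed. For receptors and ligands, cofactors and receptor-modifying enzymes the medians in shLINE_Orf2 were -0.09, 0.05 and 0.01. In shLINE_MdV_I they were -0.06, 0.07 and 0.04, each beside -0.01 for all genes. Of the 10 proneural genes 4 passed the filter.

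Neurod1, a proneural factor that drives neuronal differentiation, was the wider-list gene called in the fit of all libraries. It held 48, 49 and 57 counts in the 3 shLINE_MdV_I libraries, 6, 10 and 12 in shLINE_Orf1, 15, 5 and 15 in shLINE_Orf2, 12, 13 and 20 in shLINE_Orf1+LINE-1 and 17, 24 and 46 in shControl. In CPM, shLINE_MdV_I was at 0.959, 0.995 and 1.19, above every other library except shControl replicate 3 at 0.967. The log2 difference of shLINE_MdV_I from shLINE_Orf1 was 2.22 ± 0.47 (edgeR adjusted p = 0.0435), the adjusted p among 5 groups was 0.0470, and the difference from shControl was 0.76 ± 0.42 (adjusted p = 0.690). Both calls lie close to the threshold. The call against shLINE_Orf1 held in 11 of 25 alternatives, and the call among 5 groups in 9 of 24. The difference from shLINE_Orf1 was 2.02 without the 2 libraries and did not pass (adjusted p = 0.0874), while the test among 5 groups did (adjusted p = 0.0210). Neurod1 then also passed in shLINE_MdV_I against shLINE_Orf2 (2.10, adjusted p = 0.0309) and in shLINE_Orf1+LINE-1 against shLINE_MdV_I (-1.74, adjusted p = 0.0382).

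The next smallest p-values among 5 groups belonged to Nrarp, a Notch-induced inhibitor of the pathway, and Mfng, an enzyme that adds sugars to Notch receptors. Nrarp was at 28.6 ± 1.9 CPM in shControl, 34.3 ± 5.8 in shLINE_Orf1, 40.2 ± 2.9 in shLINE_Orf2, 34.5 ± 1.9 in shLINE_MdV_I and 28.8 ± 2.4 in shLINE_Orf1+LINE-1 (SD, n = 3). Mfng was at 4.53 ± 1.34, 4.05 ± 0.81, 6.63 ± 0.70, 6.03 ± 0.55 and 3.998 ± 0.883 CPM in the same order. Neither passed among 5 groups (adjusted p = 0.152 and 0.228), and both did without the 2 libraries (0.0372 and 0.0222). Nrarp in shLINE_Orf2 differed from shControl by 0.49 ± 0.12 (adjusted p = 0.154).

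Nrarp was also the gene whose log2 CPM was most like that of Hey1 over the 15 libraries, with a Pearson r of 0.90 and a Spearman rho of 0.87, and an r of 0.91 over 13 libraries. The plot of Nrarp against Hey1 shows both high in shLINE_Orf2 and low in shControl and shLINE_Orf1+LINE-1. Among 9522 genes compared, Ift57 (r = 0.86) and Dus2 (r = 0.84) came next for Hey1. For Hes1 the closest were Dusp1 (r = 0.86, rho = 0.67), Ntrk2 (r = 0.80) and Sil1 (r = 0.79), and for Hes5 they were Mettl9 (r = 0.88, rho = 0.70), Lrrc42 (r = 0.86) and Rdm1 (r = 0.85). These are the highest values among all genes compared, over libraries that share groups and depth, and they are given as a description.

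The authors' deposited table, which gives a group term for young LINE-1 from a mixed model over 17921 genes, lists all 10 members. Of these, 0 have a p under 0.05 in the authors' deposited table, against 2.66% of all genes, and its adjusted p is 1 for every gene. The smallest p of a member in the authors' deposited table is 0.0648, for Notch2 (t = 2.02), and the t of Dll1 and Dll3 are 0.60 (p = 0.591) and -0.27 (p = 0.803). Which samples entered that model was not given in the sources used here, so its values are not set against the comparisons above.

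Annotated neighbours limit some counts. Noncoding genes on the other strand share exonic bases with Notch1 (1068 and 414 bases), Notch3 (488), Dll1 (867) and Hes5 (433), and 1 on the same strand with Notch2 (541). None of them is among the genes counted, and the labels do not say whether strand was kept, so reads from either gene of a pair cannot be told apart. In GRCm38, Dll1 lies on chromosome 17 (15367354 to 15376872, minus strand), Dll3 on chromosome 7 (28293553 to 28302238, minus strand), Hes5 on chromosome 4 (154960923 to 154962371, plus strand) and Hey1 on chromosome 3 (8663359 to 8667256, minus strand).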

How the data were processed

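Per the labels, RNA was extracted with TRIZOL and libraries were made with a SMART-seq2-type protocol. The authors deposited expected counts (estimated reads) per transcript, without normalization; the submitters' processing notes name cutadapt, RSEM and mm10, and the annotation was not given in the sources used here, nor were versions. Of 111462 transcript rows, 110115 matched GENCODE M21 (GRCm38) by ID without version, and their counts were summed to 34910 genes and rounded. The other 1347 transcripts, with 0.595% to 0.65% of counts, and 1 blank row were left out. A second table deposited by the authors gives a t score, a p-value and an adjusted p-value per gene for the group term of a mixed model, per the file headers.

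Genes were filtered with filterByExpr (minimum count 10), scaled with TMM, and fitted in 1 model of 5 groups by quasi-likelihood in edgeR, robust setting (biological coefficient of variation 0.158). Each comparison was a contrast, adjusted by Benjamini-Hochberg over 15141 genes, with a threshold of 0.05. The adjustment was made within each comparison and not across comparisons. The procedure was run on simulated counts that held no outlying library and no length trend, so that run does not cover these features. TPM used annotated transcript lengths. The length alternative removed, through edgeR offsets, each library's trend of log2 deviation on log2 length.

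The alternatives were RLE factors, library size only, no filter, at least 50 counts in 3 libraries, DESeq2, limma-voom (quality weights), a fit of only the compared groups, a replicate block, a covariate for the number (1 or 12) that ends each library's description, each library left out, both libraries that stand apart left out, and the length trend. The members and lists were chosen with earlier results of these data known. Named genes are the 10 members, genes of the wider lists called in a pairwise comparison, the 3 with the smallest p among 5 groups, and the 3 genes most like each target among those whose mean log2 CPM reached 3 (prior count 2). Other genes of the marker lists and wider lists were named outside this rule, with their values known. Sequences are from RefSeq. Tools were R 4.3.3, edgeR 4.0.16, limma 3.58.1, DESeq2 1.42.0, Python 3.11.15, pandas 2.3.3, numpy 2.4.6 and matplotlib 3.10.9.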

Additional observations from a re-analysis of the deposited data

How the results depend on the processing

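The number of members called moved with the setting in most comparisons. In the test among 5 groups it was 0, and it became 2 with no filter and with the description number as a covariate, 3 with DESeq2 and with the length trend removed, 5 with limma-voom and with both libraries left out, and 0 to 2 when 1 library at a time was left out, with 2 (Dll1 and Dll3) without shLINE_Orf1 replicate 1 or replicate 2. In shLINE_MdV_I against shLINE_Orf1 it was 2, and it became 0 with library size only and with only the compared groups, 1 with the replicate block, 4 with the description number, 3 with limma-voom, and 0 to 2 when 1 library was left out. With the replicate block Dll1 kept an adjusted p of 0.0456 and Dll3 had 0.0676. Deviations of same-numbered libraries correlated between -0.271 and 0.18 with a median of -0.0221, and 3 of 30 pairs exceeded 0.1, so the numbers were not taken to pair the libraries. Against shControl, shLINE_Orf1 had 1 member called with DESeq2 and with limma-voom. shLINE_Orf2 against shControl had 1 with DESeq2, 3 with limma-voom, with both libraries left out and with the length trend removed, and 0 to 1 with 1 library left out. The single calls here and in the next comparison were Hey1 (adjusted p = 0.0399) and Dll3 (adjusted p = 0.011), both without shLINE_Orf1 replicate 1. shLINE_MdV_I against shControl had 1 with DESeq2 and with the description number, 3 with limma-voom and with both libraries left out, and 0 to 1 with 1 library left out. shLINE_Orf1+LINE-1 against shControl had 2 with limma-voom and 1 with both left out. shLINE_Orf2 against shLINE_Orf1 had 1 with DESeq2 and 5 with limma-voom. shLINE_Orf1+LINE-1 against shLINE_Orf2 had 1 with DESeq2 and with the length trend removed, 5 with limma-voom and with only the compared groups, and 4 with both left out. shLINE_Orf1+LINE-1 against shLINE_MdV_I had 1 with no filter, 3 with limma-voom, 2 with DESeq2, only the compared groups, the description number, both left out and the length trend removed, and 0 to 2 with 1 library left out (Dll1 and Dll3 without shLINE_Orf1 replicate 1, Dll3 without shLINE_Orf1 replicate 2). Calls over all genes moved as well. DESeq2 and limma-voom called 6.04% and 10.2% of genes among 5 groups. In shLINE_MdV_I against shLINE_Orf1 they called 2.85% and 11.2%, and in shLINE_Orf1+LINE-1 against shLINE_MdV_I 2.32% and 11%. With the length trend removed, 452, 195 and 257 genes were called, in the same order of tests. The cause of these moves was not tested. The description number is 12 in 3 libraries, shLINE_Orf1 replicate 1 and shLINE_MdV_I replicates 2 and 3.

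Of 2600 recomputed log2 differences of members, 86 had the other sign than the value reported, and for 79 of these the value reported was within 1 SE of 0. Calls were gained for 67 and lost for 22. With both libraries left out the sign changed for Notch2 (0.081) and Dll3 (0.036) in shLINE_Orf1 against shControl, for Rbpj in shLINE_Orf2 (-0.065) and shLINE_MdV_I (-0.063) against shControl, and for Hes1 in shLINE_Orf1+LINE-1 against shControl (0.11). It also changed for Dll3 (-0.10) and Hes5 (0.20) in shLINE_Orf1+LINE-1 against shLINE_Orf1, for Notch1 (-0.037), Jag1 (-0.20) and Hes1 (-0.018) in shLINE_Orf2 against shLINE_Orf1, and for Jag1 in shLINE_MdV_I against shLINE_Orf1 (-0.070). With the description number it changed for Notch2 in shLINE_Orf1 against shControl (0.10), Jag1 in shLINE_MdV_I against shControl (0.20), Hes5 in shLINE_Orf1+LINE-1 against shLINE_Orf1 (0.083), Jag1 (-0.048) and Hes1 (-0.016) in shLINE_Orf2 against shLINE_Orf1, Hes5 in shLINE_MdV_I against shLINE_Orf1 (-0.040) and Notch3 in shLINE_MdV_I against shLINE_Orf2 (0.12). The same covariate turned Notch2 (-0.31), Notch3 (-0.20), Jag1 (-0.39) and Hes5 (0.12) in shLINE_Orf1+LINE-1 against shLINE_MdV_I. With the length trend removed it changed for Notch2 in shLINE_Orf1 against shControl (0.19), Hes1 in shLINE_Orf1+LINE-1 against shControl (0.024), Hes5 (0.11) and Rbpj (-0.068) in shLINE_Orf1+LINE-1 against shLINE_Orf1, Jag1 in shLINE_Orf2 against shLINE_Orf1 (-0.028) and Rbpj in shLINE_MdV_I against shLINE_Orf2 (-0.0082). With limma-voom it changed for Dll1 in shLINE_Orf2 against shControl (-0.00049), Notch1 (-0.017) and Hes1 (0.11) in shLINE_Orf1+LINE-1 against shControl, Dll3 (-0.036) and Hes5 (0.20) in shLINE_Orf1+LINE-1 against shLINE_Orf1, Jag1 in shLINE_Orf2 against shLINE_Orf1 (-0.080) and Rbpj in shLINE_MdV_I against shLINE_Orf2 (-0.010). Library size only gave 0.018 for Hes1 in shLINE_Orf1+LINE-1 against shControl, 0.0022 for Hes5 in shLINE_Orf1+LINE-1 against shLINE_Orf1 and 0.032 for Notch2 in shLINE_Orf2 against shLINE_Orf1. For Hes1 in shLINE_Orf1+LINE-1 against shControl, DESeq2 gave 0.0019, RLE 0.0018, no filter 0.0025 and the replicate block 0.0060. The replicate block gave 0.0089 for Notch2 in shLINE_Orf2 against shLINE_Orf1 and -0.0010 for Rbpj in shLINE_MdV_I against shLINE_Orf2, where the stricter filter gave -0.00271 and only the compared groups -0.00411.

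Leaving out 1 library at a time turned signs within these ranges. In shLINE_Orf1 against shControl they were -0.44 to 0.29 for Notch2, -0.19 to 0.38 for Notch3 and -0.26 to 0.069 for Dll3. In shLINE_Orf2 against shControl they were -0.16 to 0.042 for Notch1, -0.27 to 0.11 for Notch2 and -0.066 to 0.17 for Rbpj. Rbpj in shLINE_MdV_I against shControl ranged from -0.065 to 0.18. In shLINE_Orf1+LINE-1 against shControl the ranges were -0.090 to 0.083 for Dll3, -0.056 to 0.10 for Hes1 and -0.19 to 0.057 for Rbpj, and against shLINE_Orf1 they were -0.11 to 0.23 for Dll3 and -0.25 to 0.19 for Hes5. In shLINE_Orf2 against shLINE_Orf1 they were -0.042 to 0.67 for Notch1, -0.36 to 0.39 for Notch2, -0.20 to 0.37 for Jag1 and -0.079 to 0.12 for Hes1. In shLINE_MdV_I against shLINE_Orf1 they were -0.0010 to 0.59 for Notch3, -0.073 to 0.50 for Jag1 and -0.078 to 0.36 for Hes5. Rbpj in shLINE_MdV_I against shLINE_Orf2 ranged from -0.057 to 0.055, and Notch3 in shLINE_Orf1+LINE-1 against shLINE_Orf2 from -0.19 to 0.027.

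The number of all genes called also varied. With 1 library left out it ranged from 23 to 363 among 5 groups and from 4 to 263 in shLINE_MdV_I against shLINE_Orf1. Over the other settings it ranged from 56 to 1548 among 5 groups, from 0 to 2059 in shLINE_MdV_I against shLINE_Orf1, and from 1 to 638, 4 to 383, 29 to 395 and 2 to 542 in shLINE_Orf1, shLINE_Orf2, shLINE_MdV_I and shLINE_Orf1+LINE-1 against shControl. In the other 5 comparisons the ranges were 0 to 399 (shLINE_Orf1+LINE-1 against shLINE_Orf1), 0 to 832 (shLINE_Orf2 against shLINE_Orf1), 11 to 521 (shLINE_MdV_I against shLINE_Orf2), 18 to 1549 (shLINE_Orf1+LINE-1 against shLINE_Orf2) and 69 to 1667 (shLINE_Orf1+LINE-1 against shLINE_MdV_I). Per transcript length the share of Rbpj-203 was 31.7% in place of 51.1%. Depth limits the scarce Neurod1 more than the members, which held at least 226 counts in each library.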
